A study of Homo sapiens with 9 samples.

Results

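Genes whose symbol is LINC followed only by a number are long intergenic non-coding RNA genes, lncRNA genes named for lying between protein-coding genes and for having no better known function. The table deposited for SNU16 gastric carcinoma cells lists 28717 gene identifiers, and 2227 of them carry such a symbol, 2 genes in a stretch of chromosome 8 being left out. The values of a gene's listed transcripts were summed, in FPKM (sequenced fragments scaled by transcript length and library size), and a gene was kept when its mean over all 9 libraries was at least 1 FPKM. The members were thus chosen by measured level, and the rule kept 136 genes, called the LINC genes here, which is 6.11% of the 2227 and which held 81.7% of all FPKM listed under LINC symbols. Of the rest, 1324 LINC identifiers were at 0 in every library. The level itself chose the genes, so their levels are a description and carry no test.

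SNU16 is a human line grown from a gastric carcinoma, labelled wild type. It was cultured untreated (control), with 7.69 µM 5-fluorouracil (5-FU), a pyrimidine analogue that inhibits the synthesis of thymidylate and is built into nucleic acids, or with 80 µM hydrogen peroxide (H2O2), a reactive oxygen species, in each case for 24 h. Each group had 3 replicates. Nothing in the labels places the replicates in separate cultures, so p-values cover only the spread among these 9 libraries, part or all of which can be technical, and 1 cell line stands for the tissue.

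Long non-coding RNAs are transcribed by RNA polymerase II and most are capped, spliced and polyadenylated like messenger RNA, but they are usually less abundant and more restricted to a cell type. Some act in the nucleus on chromatin or on a neighbouring gene, others in the cytoplasm by binding proteins or microRNAs, and for many transcription of the locus may matter more than the RNA. A LINC symbol is a placeholder given by position, so the genes share a naming rule and not a pathway.

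Depth is unknown, since values above 0 went down to 1e-06 FPKM in each library and whole reads could not be recovered. The libraries listed 9044 to 9335 genes at 0.5 FPKM or more. Replicate 3 of 5-FU and replicate 3 of H2O2 stood apart from the others of their groups on the first 2 principal components of all genes tested, with the former at 33.28 on the first (12.51 and 15.78 in the other 5-FU libraries) and the latter at -41.86 on the second (-3.40 and -2.39 in the other H2O2 libraries). The table lists mostly non-coding transcripts, so a marker is read only through the transcripts listed under it, and all genes means all genes of this table. Of 9 epithelial markers 7 are in the table, all with a mean above 1 FPKM. Only 4 of 6 fibroblast, 3 of 6 leukocyte and 2 of 4 endothelial markers are in the table. The listed markers of each of these types summed to at most 0.724 FPKM in any library. COL1A2, COL3A1, PDGFRA and PTPRC were listed at 0 throughout. The library kit keeps the strand of the RNA, but whether the values were quantified by strand is not stated in the labels, so values of genes that overlap others are uncertain.

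Windows around the RefSeq start (build GRCh38.p14, 250 bases before to 50 after) were available for 96 of the 136 genes. They are shown for 3 of the genes that differed between 5-FU and control libraries, namely those whose most abundant listed transcript starts at or within 28 bases of the RefSeq start. Capitals mark CCAAT, the box bound by NF-Y, in the first and the third, and GGGCGG, the GC box bound by Sp1, in the second, where it reads CCGCCC because it lies on the other strand. The window of LINC03040 is chr6:44000335-44000634 on the plus strand, that of LINC00886 chr3:156817013-156817312 on the minus strand and that of LINC02178 chr16:50395084-50395383 on the minus strand.
LINC03040: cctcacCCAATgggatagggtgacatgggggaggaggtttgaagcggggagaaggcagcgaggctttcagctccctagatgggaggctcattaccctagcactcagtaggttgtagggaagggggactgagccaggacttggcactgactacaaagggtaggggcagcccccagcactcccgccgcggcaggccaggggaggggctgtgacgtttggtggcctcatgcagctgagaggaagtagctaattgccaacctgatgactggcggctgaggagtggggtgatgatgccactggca
LINC00886: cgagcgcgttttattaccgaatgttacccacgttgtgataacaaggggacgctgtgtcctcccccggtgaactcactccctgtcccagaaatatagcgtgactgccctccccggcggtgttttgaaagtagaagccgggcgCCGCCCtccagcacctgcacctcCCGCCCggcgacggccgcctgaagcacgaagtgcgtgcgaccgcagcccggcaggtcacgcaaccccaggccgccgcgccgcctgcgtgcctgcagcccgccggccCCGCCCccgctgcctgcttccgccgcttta
LINC02178: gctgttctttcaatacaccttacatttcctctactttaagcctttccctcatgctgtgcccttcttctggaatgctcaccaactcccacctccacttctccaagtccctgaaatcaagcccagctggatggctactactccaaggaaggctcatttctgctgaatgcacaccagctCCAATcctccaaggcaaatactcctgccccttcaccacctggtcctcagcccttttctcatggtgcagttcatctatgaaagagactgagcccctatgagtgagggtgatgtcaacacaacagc
The window of LINC00886 is 67.7% G and C and holds the GC box 3 times. The LINC03040 window is 60.7% G and C, and that of LINC02178 50%, with a median of 58.3% both over the 96 LINC genes and over all 27305 windows of the table. These 3 windows differ in composition, and only that of LINC00886 holds the GC box. CCAAT on either strand stood in 45.8% of the 96 windows and in 35.7% of all windows, and GGGCGG in 43.8% and 44.6%. Of 5 other motifs searched on both strands, TATAAA stood in 14.6% of the LINC windows and 11.95% of all windows, the AP-1 site TGANTCA in 11.5% and 7.76%, and the antioxidant response core TGACNNNGC in 20.8% and 13.6%. The E-box CACGTG stood in 6.25% and 7.44%, and the p53 half-site in 4.17% and 6.54%. None of these 5 letter patterns lay in the 3 windows printed. A match is a string of letters and was not tested as a binding site.

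GENCODE V29, which annotates the same build, gave a class for most: 105 of the 136 genes were classed as lincRNA, 13 as processed transcript and 8 as antisense, and 5 were absent. A few went against the name. LINC03040 (listed in V29 as C6orf223) and LINC02693 (C17orf51) were classed as protein-coding there, LINC02210 as a transcribed unitary pseudogene, LINC00863 as a bidirectional promoter lncRNA and LINC02977 as sense overlapping. RefSeq listed 135 of the genes as lncRNA, and LINC00888 was not matched.

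Most, but not all, lay between coding genes as the name says. The listed span of 23 genes overlapped a V29 protein-coding gene, for 13 of them on the same strand. For the other 113 the median distance to the nearest protein-coding gene was 16.5 kb, with 43 within 10 kb and 25 farther than 100 kb away. Counting V29 genes of every class, coding ones included, 88 of the 136 overlapped another gene. Chromosome 1 held 17 of the genes, chromosomes 2 and 7 held 12 each and chromosome 3 held 10.

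Most LINC genes were present at a few FPKM. The median of the 136 means was 2.70 FPKM, 24 genes reached 5 FPKM, 8 reached 10 FPKM and 46 lay between 1 and 2 FPKM. All 136 were above 0 in all 9 libraries, and 99 were at 1 FPKM or more in each. In 21 genes the mean of at least 1 group was under 1 FPKM, and 4 (LINC02672, LINC02178, LINC01011 and LINC02256) reached 1 FPKM in the 5-FU mean alone, so for these the level rule leaned on the 5-FU libraries. The last kept were LINC02178 at 1.01, LINC02256 at 1.01 and LINC03049 at 1.001 FPKM, and the first left out were LINC02656 at 0.985, LINC02356 at 0.973 and LINC01269 at 0.961 FPKM. Of 2 identifiers that share the symbol LINC02256, the one just inside is ENSG00000289083.

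**Figure D1:**
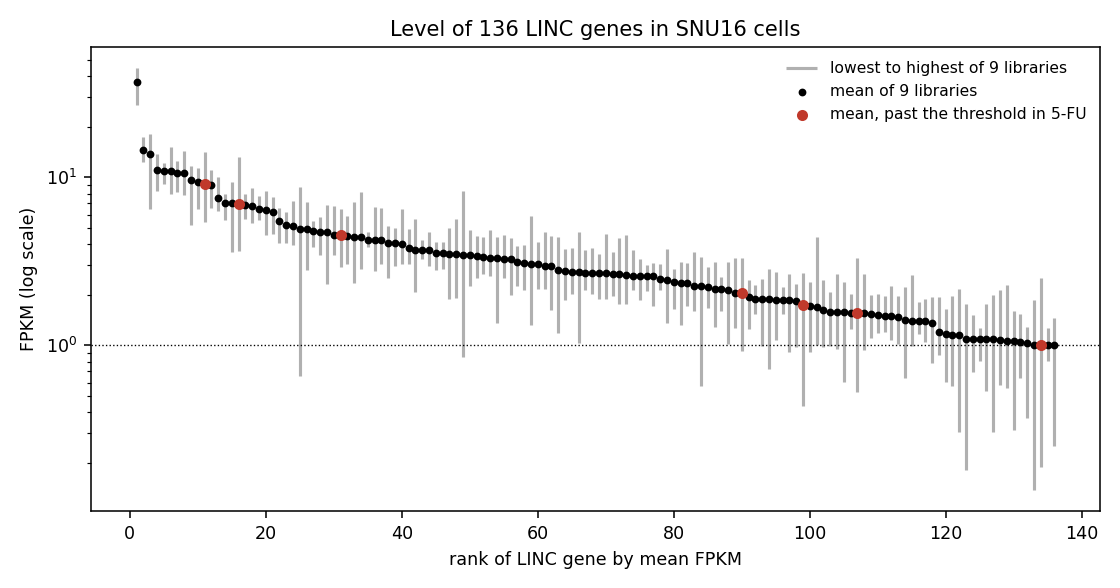
Mean FPKM over 9 libraries (log scale) of the 136 LINC genes in order of that mean, with grey lines from the lowest to the highest library and red points for the 7 genes past the threshold in 5-FU against control. LINC00511 stands above the rest, 7 other genes at 10 FPKM or more come next, and the dotted line marks the 1 FPKM of the rule, near which the last red point, LINC02178, lies.

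LINC00511 was the most abundant, with 36.7, 38.2 and 34.2 FPKM in the control libraries, 31.9, 26.9 and 39.9 with 5-FU and 44.4, 36.7 and 43.4 with H2O2. It is a gene of chromosome 17 (72290091 to 72640472), described as overexpressed in several carcinomas, with 107 listed transcripts and 7.19% of the FPKM of the 136 genes. Its groups overlapped in each comparison. The most abundant model, a retained-intron transcript, held 24.9% of its value.

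The next 7 in level were LINC00174 (mean 14.6 FPKM), LINC02967 (13.7), LINC00662 (11), LINC00342 (10.9), LINC01176 (10.9), LINC01091 (10.7) and LINC02595 (10.6). With LINC00511 they supplied 23.2% of the FPKM of the 136 genes. LINC00511 was above all of them in every library, and after it the ranges over the 9 libraries of neighbours in this order overlapped. LINC00174 overlaps TPST1, a protein-coding gene on the other strand, and LINC01176 overlaps AC006978.2, classed as protein-coding in V29, on the same strand, so the values of both are uncertain. None of the 8 passed the threshold in any comparison.

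LINC01176 was at 8.55, 10.7 and 7.97 FPKM in control, 12, 12.6 and 15.2 with 5-FU and 10.1, 10.1 and 11 with H2O2. LINC02967, a gene with 1 listed transcript, was at 14.4, 6.48 and 12.4 FPKM in control, 16.4, 18 and 17.1 with 5-FU and 13.7, 13.9 and 10.7 with H2O2. In both the 5-FU libraries were all above the controls, with log2 differences of 0.53 (limma adjusted p = 0.152) and 0.68 (0.231). LINC00662, described in liver and stomach tumours, went the other way, at 12.4, 11.5 and 12.9 FPKM in control and 8.32, 9.36 and 10.7 with 5-FU, without overlap (log2 difference -0.36, adjusted p = 0.338).

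The 136 genes together summed to 518, 514 and 523 FPKM in control, 497, 505 and 532 in 5-FU and 511, 538 and 483 in H2O2. As a share of everything listed that was 0.911% ± 0.0049 in control, 0.883% ± 0.0123 with 5-FU and 0.869% ± 0.0610 with H2O2 (SD, n = 3). The sums overlapped between groups. The shares did not overlap between 5-FU (at most 0.896%) and control (at least 0.906%), a description without a test. With median-of-ratios scaling the mean sums were 530.2 FPKM in control, 503 with 5-FU and 508 with H2O2. The lowest share, 0.799%, was that of H2O2 replicate 3, the library that stood apart.

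A list of 25 LINC genes described in gastric or other digestive tract tumours was drawn up from general knowledge. The table lists 19 of them and 9 are among the 136. By mean these were LINC00511, LINC00662, LINC01559 (9.15 FPKM), LINC01232 (8.99), LINC00659 (4.74), LINC00963 (4.73), LINC01133 (3.47), LINC00467 (3.3) and LINC00857 (3.09). Of the 19, 11 could be tested, and the counts that follow cover only the 9 among the 136. Of these 9, 1 passed by limma in 5-FU against control (LINC01559, higher), where 0.774% of all genes tested passed. In the other comparisons 0 passed, beside 0.0% of all genes in H2O2 against control and 0.0704% in 5-FU against H2O2. At an unadjusted p under 0.05 were 2 of the 9 in 5-FU against control (15.5% of all genes tested). It was 1 in H2O2 against control (9.07%) and 1 in 5-FU against H2O2 (11.6%). The second in 5-FU was LINC00963, at 5.81, 5.69 and 6.85 FPKM in control, 2.31, 4.56 and 3.56 with 5-FU and 5.12, 4.76 and 3.9 with H2O2. Every 5-FU value of LINC00963 was below every control value (log2 difference -0.77, adjusted p = 0.138).

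5-FU libraries were compared with control libraries to see which LINC genes respond to a drug that stalls DNA synthesis and disturbs RNA. LINC01559, LINC02672, LINC00589, LINC02889 and LINC02178 rose, and LINC03040 and LINC00886 fell. The rises ran from 2.06-fold in the mean FPKM of LINC00589 to 5.63-fold in LINC02178. Differences were tested with limma on log2(FPKM + 0.5) over all 9947 genes that reached 0.5 FPKM in at least 3 libraries, which all 136 LINC genes did, and a gene passed at a Benjamini-Hochberg adjusted p under 0.05. On that scale the changes of low genes are understated, and in bulk RNA fewer cells with a transcript and less of it per cell cannot be told apart.

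These 7 were 5.15% of the 136, where 0.774% of all genes tested passed. Passing as higher were 5 (0.523% of all genes) and as lower 2 (0.251%). Of the 5, LINC02672 and LINC02178 met the level rule only through their 5-FU libraries, so their count as higher is partly fixed by that rule and the share is not support for a difference from all genes. An unadjusted p under 0.05 was reached by 34, that is 25% of the LINC genes, 17 higher and 17 lower, against 15.5% of all genes (9.03% higher and 6.46% lower). In 53 genes, 39.0%, the 5-FU and control libraries did not overlap, 24 higher and 29 lower, against 22.3% of all genes (12.8% higher and 9.56% lower). Whether these shares differ from those of all genes was not tested. The median log2 difference of the 136 was -0.06, with 77 below 0, and that of all genes was 0.03. In 101 genes the log2 difference was smaller than 0.5 either way.

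LINC01559 (chromosome 12, 13371089 to 13387167) has been described in gastric and pancreatic cancer cells. The 3 control libraries held 6.06, 5.43 and 5.44 FPKM, the 5-FU libraries 13.5, 11.5 and 14.1 and the H2O2 libraries 8.45, 8.35 and 9.5. The 3 groups were separate, with H2O2 between the others. The log2 difference between 5-FU and control was 1.14 (SE 0.15, limma adjusted p = 0.0192), the smallest adjusted p among the LINC genes. It lies 50775 bases from the nearest coding gene, GRIN2B, which encodes an NMDA receptor subunit.

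LINC02672 (chromosome 10, 52972612 to 53030024) held 0.865, 1.02 and 0.997 FPKM in control, 3.33, 3.07 and 2.44 with 5-FU and 0.816, 0.925 and 0.529 with H2O2. The 5-FU libraries alone were high, at 3.07 times the control mean, and the other groups overlapped. The difference from control was 1.23 (SE 0.20, limma adjusted p = 0.0266). The nearest coding gene, MBL2, the gene of mannose-binding lectin, is 200912 bases away.

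LINC00589 (chromosome 8, 29673922 to 29748109), also known as TSLNC8 and described as a tumour suppressor lncRNA, held 3.03, 3.23 and 2.91 FPKM in control, 6.06, 6.42 and 6.46 with 5-FU and 3.88, 3.8 and 4.87 with H2O2. Again the 5-FU libraries were highest and the H2O2 libraries lay between, with no overlap between any groups. The difference of 5-FU from control was 0.94 (SE 0.15, limma adjusted p = 0.0304).

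LINC02889 (chromosome 7, 17405479 to 17558909) held 1.09, 1.13 and 0.932 FPKM in control, 2.52, 2.71 and 3.3 with 5-FU and 1.85, 1.95 and 2.91 with H2O2. Both treated groups were above all controls and overlapped each other. The difference of 5-FU from control was 1.10 (SE 0.20, limma adjusted p = 0.0349). It overlaps AC019117.2, a gene classed as protein-coding in V29, on the other strand.

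LINC02178 (chromosome 16, 50390916 to 50395133), with 1 listed transcript, lies 21982 bases from BRD7, a bromodomain gene of a chromatin remodelling complex. It held 0.371, 0.188 and 0.438 FPKM in control, 2.51, 1.5 and 1.61 with 5-FU and 0.845, 0.43 and 1.19 with H2O2. The 5-FU libraries were above all others, while the H2O2 and control libraries overlapped. The difference from control was 1.50 (SE 0.27, limma adjusted p = 0.0342), and its controls were all under 0.5 FPKM, a level at which the log2 value rests on the added 0.5.

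LINC03040 (chromosome 6, 44000580 to 44007612) was the most abundant of the genes that fell. It held 13.3, 7.93 and 8.36 FPKM in control, 3.66, 3.78 and 3.84 with 5-FU and 8.76, 7.04 and 5.88 with H2O2. The 5-FU libraries were nearly equal and below all others, and 1 control library was far above the rest. The difference from control was -1.25 (SE 0.22, limma adjusted p = 0.0322). Its leading transcript (80.0% of the value) and the next (17.9%) are both protein-coding in V29, while RefSeq lists the gene as lncRNA.

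LINC00886 (chromosome 3, 156747343 to 156817062) held 2.0, 2.59 and 2.7 FPKM in control, 0.436, 0.862 and 0.744 with 5-FU and 2.26, 2.58 and 1.47 with H2O2. The 5-FU libraries were all below 1 FPKM and below every other library. The difference from control was -1.32 (SE 0.23, limma adjusted p = 0.0336). The gene lies 8419 bases from LEKR1, and its leading transcript starts inside the GC-rich window printed above.

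**Figure D2:**
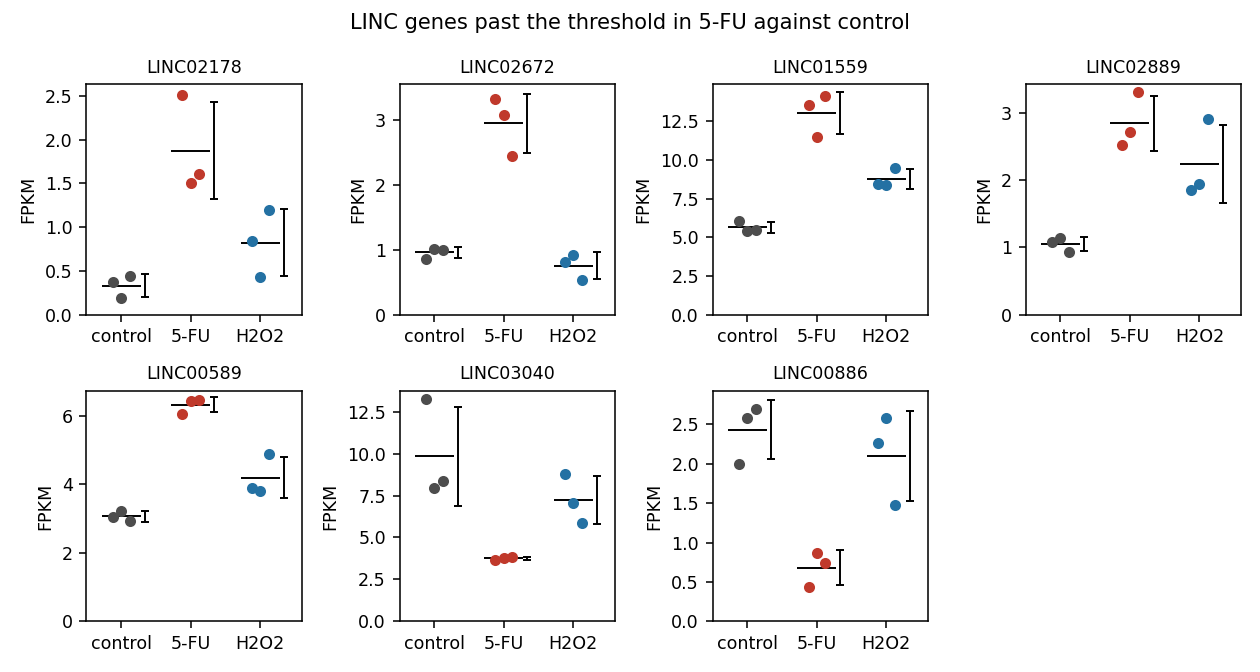
FPKM in each library of the 7 LINC genes past the threshold in 5-FU against control, 1 panel a gene, with points for the 3 replicates of each group, a line at the mean and a bar of 1 SD either way, on axes that start at 0. In the 5 genes that rose every 5-FU point is above every control point, in LINC03040 and LINC00886 every 5-FU point is below, and the H2O2 points of LINC01559 and LINC00589 lie between.

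Just short of the threshold were LINC02535 and LINC02175. LINC02535, with 1 listed transcript, held 0.855, 0.84 and 0.638 FPKM in control, 1.67, 2.23 and 1.97 with 5-FU and 1.45, 1.25 and 1.77 with H2O2 (5-FU log2 difference 0.94, limma adjusted p = 0.0554). LINC02175 held 1.91, 2.38 and 2.06 FPKM in control, 1.04, 0.602 and 0.989 with 5-FU and 1.43, 1.84 and 1.89 with H2O2 (-0.94, adjusted p = 0.0629). In LINC02535 both treated groups were above the controls, and in LINC02175 both were below. LINC01770, which lies 288 bases from VWA1, was at 3.51 ± 1.03 FPKM in control and 1.72 ± 0.639 with 5-FU (SD, n = 3, adjusted p = 0.165). LINC00863, the bidirectional promoter lncRNA, was at 2.12 ± 0.397 and 1.02 ± 0.105 FPKM (adjusted p = 0.126). In both the groups did not overlap.

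The 7 passing genes rested on the full set of libraries. Without any 1 control or 5-FU library 0 of the 136 passed by limma, and without H2O2 replicate 1 only LINC01559 did, while without H2O2 replicate 2 or 3 the same 7 passed. The share of all genes passing in the same settings is not given here, so the loss may not be particular to the LINC genes. The values moved far less than the adjusted p: with 1 library left out the log2 difference ranged 1.08 to 1.22 for LINC01559, 1.15 to 1.34 for LINC02672, 0.91 to 0.97 for LINC00589 and 1.01 to 1.18 for LINC02889. It ranged 1.31 to 1.61 for LINC02178, -1.37 to -1.02 for LINC03040 and -1.43 to -1.16 for LINC00886. With both libraries that stood apart left out 0 passed, with log2 differences such as 1.08 (adjusted p = 0.0776) for LINC01559 and -1.37 (0.0923) for LINC00886. The summed epithelial markers were 326 to 419 FPKM in control and 207 to 278 FPKM in 5-FU libraries. The mean of KRT8 was 227.5 FPKM in control and 103 FPKM in 5-FU. Also lower in 5-FU were EPCAM (17.6 and 11.4 FPKM), KRT18 (70.2 and 64.2), KRT19 (21.7 and 13.8) and MUC1 (25.8 and 21.6). Higher in 5-FU were CDH1, at 15.1 and 17.9 FPKM, and KRT7, at 5.38 and 8.28 FPKM. These are values of the transcripts listed under each marker, which may not be all transcripts of the gene. The part of these markers in the result was not tested.

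**Figure D3:**
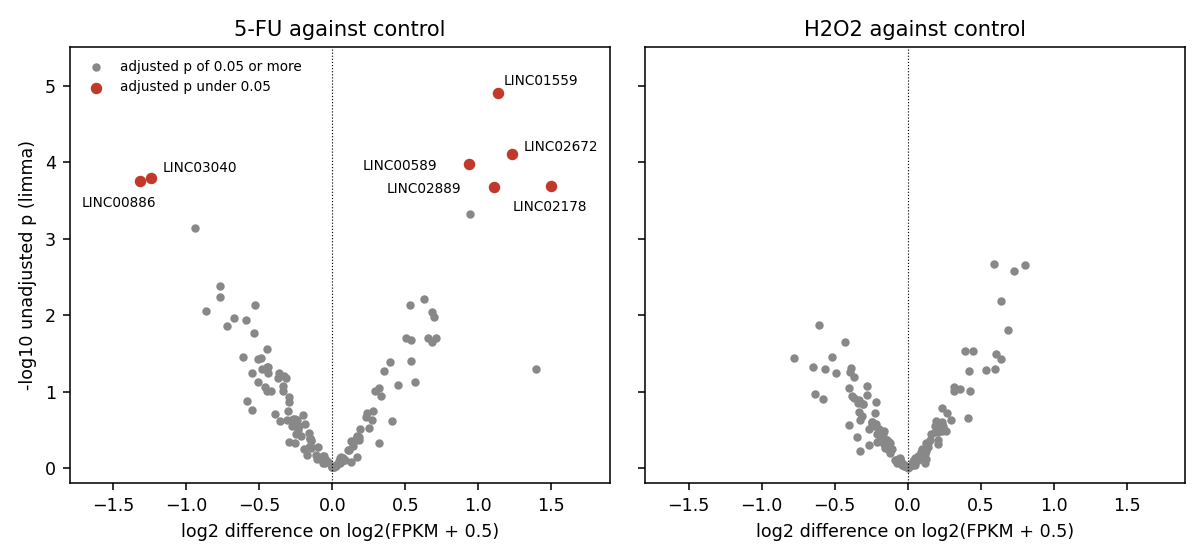
Log2 difference of FPKM + 0.5 (x axis) against -log10 of the unadjusted limma p (y axis) for the 136 LINC genes, in 5-FU against control on the left and H2O2 against control on the right, with red points for an adjusted p under 0.05. The 7 red points are all on the left, 5 to the right of 0 and 2 to the left of it, and the right panel, which uses the same controls, has none.

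**Figure D4:**
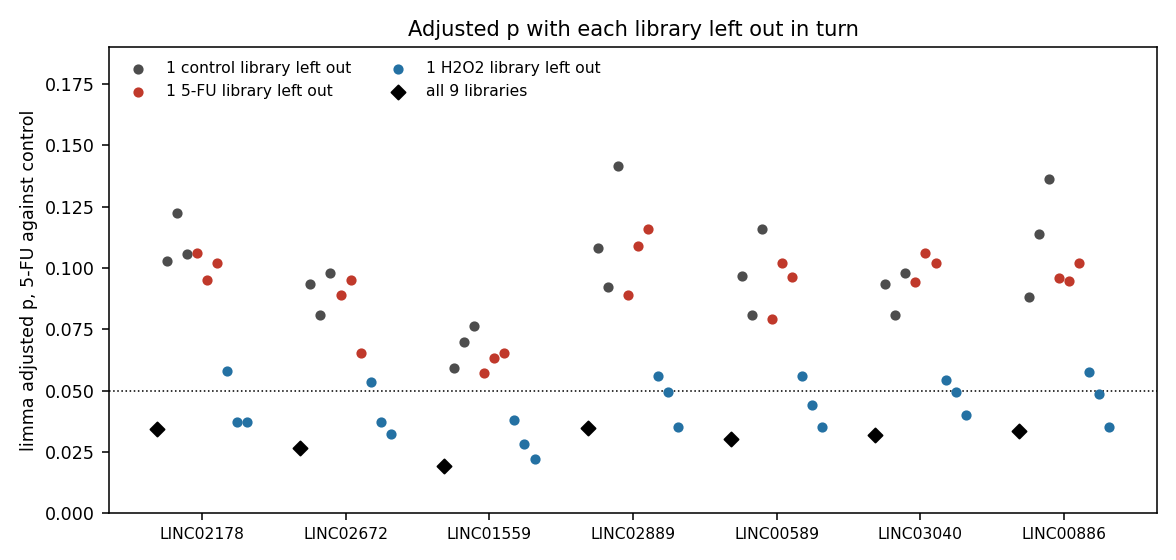
Limma adjusted p for 5-FU against control of the 7 passing LINC genes (y axis), with black diamonds for all 9 libraries and points for each library left out in turn, coloured by the group of that library. All diamonds are under the dotted line at 0.05, all points without a control or 5-FU library are above it, and of the points without an H2O2 library most are below.

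H2O2 libraries were compared with control libraries to see which LINC genes respond to oxidative stress. None passed the threshold by limma, as in all genes tested (0.0%), and 0 passed with array weights as well. An unadjusted p under 0.05 was reached by 15 of the 136, that is 11.03%, 9 higher and 6 lower, against 9.07% of all genes (5.29% higher and 3.78% lower). In 29 genes, 21.3%, the groups did not overlap, 13 higher and 16 lower, against 15.4% of all genes (8.86% higher and 6.51% lower). The median log2 difference was -0.04, beside 0.03 over all genes, and it changed sign to 0.01 without H2O2 replicate 3. The 5-FU and H2O2 comparisons share their control libraries, so like directions in them are not independent.

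Among genes without overlap, the highest log2 differences were those of LINC02889 (0.80), LINC02580 (0.73), LINC01002 (0.69), LINC02535 (0.64) and LINC00887 (0.60), with limma adjusted p from 0.333 to 0.507. LINC02580, which lies 5156 bases from ZFP36L2, the gene of a protein that promotes decay of AU-rich messenger RNA, held 1.83, 2.28 and 2.1 FPKM in control, 3.07, 3.75 and 4.53 with H2O2 and 2.26, 1.77 and 2.15 with 5-FU. Here the H2O2 libraries alone were high. LINC00887 held 1.33, 1.36 and 0.997 FPKM in control, 2.65, 1.62 and 2.18 with H2O2 and 1.88, 0.941 and 1.01 with 5-FU. LINC01002 held 3.67, 3.07 and 2.34 FPKM in control, 7.13, 4.77 and 3.88 with H2O2 and 5.82, 4.19 and 5.07 with 5-FU, so that both treated groups were above the controls. LINC01559 was 1.55 times its control mean in H2O2 (log2 difference 0.59, unadjusted p = 0.00212, adjusted p = 0.333).

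The lowest without overlap were LINC03015 (-0.78), LINC02387 (-0.61), LINC00623 (-0.57), LINC00858 (-0.52) and LINC02532 (-0.49), with adjusted p from 0.465 to 0.564. LINC02387 held 2.47, 2.47 and 2.48 FPKM in control, 1.74, 1.72 and 0.985 with H2O2 and 1.51, 2.03 and 1.57 with 5-FU, and the 3 controls were nearly identical. LINC03015 was at 2.25, 0.57 and 1.89 FPKM in H2O2 and 2.52, 2.54 and 3.37 in control, its low value resting on H2O2 replicate 2 (log2 difference -1.04 to -0.36 with 1 library left out). LINC00858, described in colorectal cancer, was at 4.58, 2.82 and 3.1 FPKM in control, 2.28, 1.94 and 2.6 with 5-FU and 2.21, 2.73 and 1.88 with H2O2, below the controls in both treatments.

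The comparison of 5-FU with H2O2 tests directly whether the treatments differ. LINC02672, which met the level rule only through 5-FU, was the single LINC gene that passed, at 2.95 ± 0.456 FPKM in 5-FU and 0.757 ± 0.205 FPKM in H2O2 (SD, n = 3), and the difference on the log2 scale was 1.46 (SE 0.20, limma adjusted p = 0.0487). That is 0.735% of the 136, against 0.0704% of all genes tested (0.0302% higher and 0.0402% lower). Since the level rule took in LINC02672 through its 5-FU libraries, this share is not support for a difference from all genes. With any 1 of the 9 libraries left out it no longer passed (log2 difference 1.32 to 1.57, adjusted p 0.0692 to 0.205). An unadjusted p under 0.05 was reached by 25, 11 higher and 14 lower in 5-FU, against 11.6% of all genes (6.08% higher and 5.47% lower). In 33, 24.3%, the groups did not overlap, 18 higher and 15 lower, against 17.7% of all genes (9.42% higher and 8.32% lower). The median log2 difference was -0.02, beside 0.00 over all genes.

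The other highest were LINC02210 (1.28, limma adjusted p = 0.462) and LINC02532 (1.03, 0.138). LINC02532 held 1.47, 1.67 and 2.16 FPKM in 5-FU, 1.06, 1.02 and 1.06 in control and 0.852, 0.733 and 0.305 with H2O2, so the treated groups lay on opposite sides of the controls, without overlap. The lowest were LINC00886 (-1.13, adjusted p = 0.113), LINC02245 (-0.95, 0.113) and LINC03040 (-0.84, 0.195). LINC02245, whose span overlaps SLC1A4, an amino acid transporter gene, held 0.913, 1.19 and 1.14 FPKM in 5-FU, 2.07, 1.39 and 2.28 in control and 2.67, 2.52 and 2.48 with H2O2, again on either side of the controls.

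Replicates spread by a median coefficient of variation of 14.7% in control, 15.5% in 5-FU and 19.1% in H2O2 over the 136 genes, and exceeded 50% in 4, 7 and 6 genes. The 4 in control were LINC02210, LINC01133, LINC02820 and LINC01138. LINC01133, described in gastric and colorectal cancer, held 5.76, 3.24 and 1.44 FPKM in control, 4.48, 0.849 and 8.26 with 5-FU and 1.68, 2.59 and 2.9 with H2O2. The control and 5-FU libraries each spanned more than the distance between any group means, and the groups overlapped. LINC02820 held 0.573, 1.96 and 1.05 FPKM in control and LINC01138 2.58, 5.87 and 2.51, each with 1 replicate well above the others.

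LINC02210 showed where such a spread sits. The gene held 8.07, 2.5 and 0.656 FPKM in control, 7.23, 7.14 and 8.7 with 5-FU and 1.87, 6.39 and 1.83 with H2O2. One retained-intron model (73.7% of the value) held 6.97, 0.056 and 0.0663 FPKM in control, 5.63, 6.17 and 8.03 with 5-FU and 0.104, 5.54 and 0.138 with H2O2. That model was high in every 5-FU library but in only 1 library each of control and H2O2, and was near 0 in the others. The difference of the gene between 5-FU and control was 1.40 (SE 0.63, limma adjusted p = 0.324). It overlaps LINC02210-CRHR1, a read-through gene, and the division of reads among overlapping models was not tested.

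Transcript models differed in how much of a gene's value they carried. The 136 genes had a median of 5.5 listed transcripts, 21 had 1, and the most abundant model held a median of 49.3% of the value. In 47 genes the leading model was not the same in all 3 groups, and by level the first of these were LINC00662, LINC01572, LINC01232, LINC00630, LINC00649 and LINC01145. In LINC00649, for example, the model ENST00000427447 held 0.464, 0.36 and 3.27 FPKM in control, 3.28, 3.53 and 3.19 with 5-FU and 3.63, 0.0634 and 0.257 with H2O2, while the gene's groups overlapped. In LINC01572 the model ENST00000661899 held 0, 0.316 and 0.762 FPKM in control, 2.41, 1.56 and 3.85 with 5-FU and 1.33, 2.17 and 3.07 with H2O2, and the gene itself was higher in both treated groups without passing (5-FU log2 difference 0.39, limma adjusted p = 0.303).

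Tested singly, 334 transcripts of the LINC genes had enough signal, and 0 passed by limma in any comparison, beside 0.00442% of 22618 transcripts in 5-FU against control and 0.0133% in each of the others. An unadjusted p under 0.05 was reached by 45 in 5-FU against control (13.5%, against 10.4% of all), 24 in H2O2 against control (7.19%, against 7.6%) and 42 in 5-FU against H2O2 (12.6%, against 8.45%). For LINC01559 the leading model, ENST00000318426 (72%), followed the gene, at 4.34, 4.15 and 3.46 FPKM in control, 9.22, 8.93 and 10.2 with 5-FU and 6.66, 5.63 and 6.7 with H2O2. The leading model of LINC00886, ENST00000472943 (65.8%), did so too, at 1.51, 1.42 and 1.42 FPKM in control, 0.339, 0.412 and 0.498 with 5-FU and 1.67, 1.56 and 1.47 with H2O2.

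In other passing genes the models were less even. The leading model of LINC00589, ENST00000662593, held 2.45, 2.39 and 0 FPKM in control and 4.13, 4.97 and 4.1 with 5-FU, so that 1 control was listed at 0, while the sum over its 3 models was even. In LINC02672 the rise sat in ENST00000654808, at 0, 0.511 and 0.335 FPKM in control and 2.86, 1.66 and 1.52 with 5-FU. The second model, ENST00000668157, with the same listed span, held 0.865, 0.392 and 0.417 and 0.277, 1.22 and 0.697, in groups that overlapped. LINC02889 was split over 20 models and the largest, ENST00000439046, held 24.6% of its value.

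**Figure D5:**
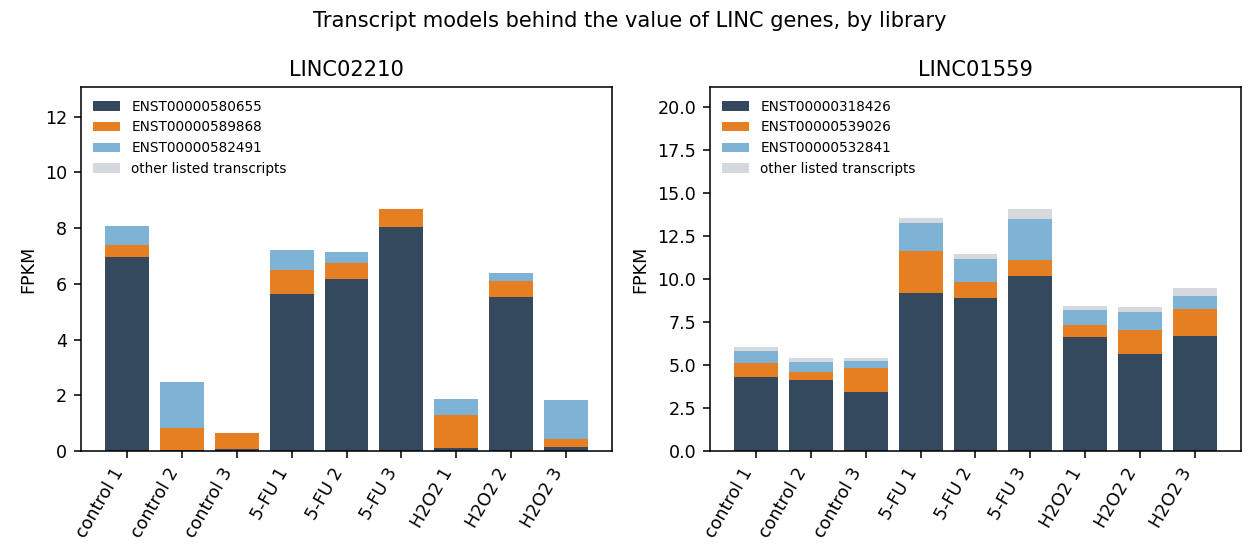
FPKM of the 3 most abundant transcript models of LINC02210 and LINC01559 in each library, stacked, with the other listed transcripts in grey, on axes that start at 0. In LINC02210 the dark model fills most of the bar in the 5-FU libraries, control 1 and H2O2 2 and is nearly missing in the others, while in LINC01559 the same model leads in all 9 libraries.

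Other classes of named lncRNA genes at the same level rule give the LINC values a frame. Of 262 antisense genes (symbols ending in -AS, with or without a number) 0 passed as higher and 7 as lower in 5-FU against control by limma. Of 119 divergent genes (DT) it was 0 and 2, and of 22 snoRNA host genes (SNHG) 0 and 2. The shares passing were 2.67%, 1.68% and 9.09%, beside 5.15% of the 136 LINC genes and 0.774% of all genes tested. An unadjusted limma p under 0.05 was reached by 24.4%, 21.8% and 22.7%, beside 25% of the LINC genes and 15.5% of all genes. The groups did not overlap in 32.4%, 32.8% and 27.3%, beside 39.0% and 22.3%. Shares above those of all genes were thus not particular to the LINC genes. Median log2 differences of the 3 classes were -0.20, -0.24 and -0.14, against -0.06 for the 136 LINC genes. Among 111 LINC genes tested but below the level rule 1 passed (0.901%), as higher, with a median of -0.13. In H2O2 against control 0 passed in each class by limma, as in all genes tested. An unadjusted p under 0.05 was reached by 21 antisense (8.02%), 12 divergent (10.1%), 3 SNHG (13.6%) and 4 low LINC genes (3.60%). Of all genes it was 9.07%. Medians of these classes, in the same order, were -0.09, -0.10, 0.10 and -0.06. These values stand side by side, and differences between the classes were not tested.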

How the data were processed

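FPKM values per transcript were deposited by the authors in 1 table of 90652 transcripts with 9 library columns, made from total RNA with the NEBNext Ultra Directional kit, per the labels' protocols. Per the submitters' processing notes the tools were HISAT2 2.0.5, StringTie and edgeR 3.22.5 on build GRCh38, with no step given for any. The annotation release and the use of strand are not stated there.

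FPKM were summed per gene identifier without further scaling. limma 3.58.1 (lmFit, eBayes with a trend) in R 4.3.3 was fitted to log2(FPKM + 0.5) of 9947 genes with at least 3 libraries at 0.5 FPKM or more. The fit took all 9 libraries, which left 6 residual degrees of freedom. P-values are two-sided, adjusted by Benjamini-Hochberg over all genes tested, with 0.05 as the threshold. The same fit was applied to 22618 transcripts. The procedure was tested on simulated data.

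The LINC genes, the list of 25 genes of digestive tumours and the tests were chosen with earlier results of these data known. Genes were named by rule: the 8 most abundant, those past the threshold, the 5 highest and 5 lowest without overlap in each comparison with control (3 and 3 for 5-FU against H2O2), the 3 on either side of 1 FPKM, the listed genes, the 4 with the largest control spread and 6 whose leading transcript differs between groups. LINC02693, LINC02977, LINC00888 and LINC01011 were named after their values were seen. Classes and distances came from GENCODE V29 and promoter windows from RefSeq. Lengths and base composition of the leading transcripts were not compared, because V29 holds sequence for 88 of the 136, under the 80% needed. Alternatives were other pseudocounts, filters and scalings, array weights, a replicate block, other level rules, the most abundant transcript alone and each library left out. Rules that kept V29 lincRNA genes, or genes without protein-coding overlap, were added after seeing the data.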

Additional observations from a re-analysis of the deposited data

Results flagged for a closer look

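LINC02672 passed the threshold between the treatments, with a log2 difference of 1.46 between 5-FU and H2O2 by the direct test of that difference (limma adjusted p = 0.0487), and it was higher in 3 of 3 5-FU libraries than in any H2O2 library. Against control it was at 1.23 in 5-FU and -0.23 in H2O2 on the log2 scale. The gene met the level rule of 1 FPKM only through its 5-FU libraries, and with any 1 library left out it no longer passed (adjusted p 0.0692 to 0.205).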

How the results depend on the processing

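In 5-FU against control 7 LINC genes passed. The same 7 passed with pseudocounts of 0.1 and 1 and with a stricter filter, and 8 passed, those 7 among them, with median-of-ratios scaling, with array weights or with a level rule of 0.5 FPKM. The count was 3 with no filter, 1 with only the 2 groups compared, 4 of 90 at a level rule of 2 FPKM, and 0 with both libraries numbered 3 left out of 5-FU and H2O2 or with the most abundant transcript of each gene alone. With 1 library left out it was 0 to 7. Of 113 genes without protein-coding overlap 6 passed, as did 6 of 105 V29 lincRNA genes. In H2O2 against control it was 0 under every alternative run. In 5-FU against H2O2 it was 1, and 0 with no filter, with only the 2 groups compared, at 2 FPKM, with the libraries numbered 3 left out, with the most abundant transcript and with any 1 library left out (0 to 0). The cause of these losses was not tested, and the share of all genes passing under each alternative is not given here.

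Deviations of same-numbered libraries from their group means were at most weakly correlated (-0.0357 to 0.0801). Between 5-FU and H2O2 each same-number correlation was above the highest with another number (0.0801 against -0.0249, 0.0163 against 0.0120, 0.0620 against 0.0075). Between control and 5-FU this held for replicate 3 alone, and between control and H2O2 for none. With 3 libraries a group these values cannot tell whether replicate numbers pair the libraries. With a replicate block 0 genes passed in 5-FU against control and 0 in 5-FU against H2O2.

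The median log2 difference kept its sign in 5-FU against control. In 5-FU against H2O2 it was -0.074 to 0.039 with 1 library left out, the ends being those without H2O2 replicate 3 and 2. Sums over the LINC genes were 482, 479 and 469 FPKM in control, 5-FU and H2O2 without LINC00511, and 575, 564 and 563 FPKM at a level rule of 0.5 FPKM. With median-of-ratios scaling they were 530.2, 503 and 508 FPKM. That scaling moved the median of all genes by less than 0.1 on the log2 scale in each comparison.

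For 27 differences of named genes, 513 alternatives were computed: 418 kept direction and side of the threshold, 93 kept direction but no longer passed, 2 newly passed and 0 reversed. The 2 were LINC02175 with median-of-ratios scaling (adjusted p = 0.0442) and LINC02535 (0.0424) in 5-FU against control. The log2 difference of LINC00589 was 1.59 and that of LINC02889 0.62 with the most abundant transcript alone. Unknown depth leaves the counting error of genes near 1 FPKM unmeasured.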
